A study of Caenorhabditis elegans with 40 samples.

Results

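Knockdown of repo-1 by RNA interference (RNAi) was measured in eat-2 mutants of Caenorhabditis elegans, 8 of the 40 libraries of the series. The 8 were chosen by genotype and treatment, as 4 libraries of eat-2(ad1116) animals (strain DA1116) exposed to repo-1 RNAi from hatching and 4 of eat-2(ad1116) animals on the empty vector, all whole bodies taken on day 1 of adulthood. Both groups carry the eat-2 mutation, and the control for the RNAi is the vector without an insert. Where a result is set against wild type, the same 2 treatments of wild type N2 animals of that age are used, again with 4 libraries each. Within each group the libraries carry the numbers 1 to 4, which the labels also call the batch. Whether each came from its own culture is not said, so the p-values rest on differences among samples that may be partly or wholly technical. The series asks how far lifespan extension depends on splicing factors early in life.

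repo-1 encodes the nematode counterpart of SF3A2, a subunit of the SF3a complex. SF3a belongs to the U2 small nuclear ribonucleoprotein (snRNP), which binds the branch point of an intron before the U4/U6.U5 tri-snRNP joins and the helicases of the assembled spliceosome drive the cuts. eat-2 encodes a subunit of a nicotinic acetylcholine receptor in pharyngeal muscle. Mutants pump food slowly and are a standard model of dietary restriction.

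The deposited values are gene counts divided by a size factor for each library (normalized counts). The eat-2 libraries held 16861741 to 40777780 reads on empty vector and 7430044 to 37039895 on RNAi, where replicate 3 was the shallowest. Genes were tested with limma on log2(value + 1) over 12327 genes with a mean of at least 10. A gene was called at an adjusted p under 0.05, and errors after log2 fold changes are standard errors (SE) from that fit. Of the 12327 genes, 4628 (37.5%) were called between the 2 eat-2 groups. Of these, 1996 genes (16.2%) were higher on RNAi and 2632 genes (21.4%) were lower, and 244 and 577 of them changed at least 2-fold. Higher genes made up 43.1% of the calls with the authors' scaling, 53.5% after quantile normalization and 32.7% with edgeR's scaling, so the balance of rises and falls was not stable to scaling. The median over all genes was -0.03 on the log2 scale, and was 0.02 and -0.08 under those scalings.

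repo-1 itself (chromosome IV, 12084478 to 12085320, WBcel235) was read at 679.9, 696.3, 679.4 and 659.5 normalized counts in the 4 empty vector libraries and at 381, 408, 306.9 and 335.8 on RNAi. The groups did not overlap, and every RNAi library lay far below every control. The mean on RNAi was 52.7% of that on empty vector, a log2 fold change of -0.93 ± 0.087 (limma adjusted p = 2.14e-10). In wild type the remaining level was 38%, with means of 839 ± 33.6 and 318.5 ± 16 (SD, n = 4). The log2 fold change in eat-2 was 0.47 ± 0.123 above that in wild type (adjusted p for the difference = 0.00981), and the difference missed the threshold after quantile normalization (0.0639). eat-2 was too low to test, with 4.575 to 10.52 on empty vector and 0 to 5.427 on RNAi.

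Most genes in 4 lists of spliceosome components rose while repo-1 fell. Of 14 U2 snRNP and branch point factors, 11 rose and 1 fell, the one that fell being repo-1, and the median log2 fold change was 0.26. Of 18 proteins of the U1 snRNP and the tri-snRNP, 15 rose and 0 fell (median 0.36), and of 20 spliceosomal helicases and PRP19 complex proteins 19 rose and 0 fell (median 0.37). Sm and LSm proteins, which form rings on the snRNAs, rose in 9 and fell in 2 of 14 (median 0.34). These shares stand beside 16.2% of all genes that were higher.

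uaf-2, the small subunit of U2AF that reads the 3′ splice site, was read at 1741.8, 1911.2, 1743.1 and 1733.5 on empty vector and at 2590.2, 2762.5, 2701.5 and 2806.7 on RNAi. All RNAi libraries were higher, and the rise was 1.52-fold (log2 fold change 0.61 ± 0.0494, adjusted p = 8.7e-12). The partners of REPO-1 in SF3a moved the same way. prp-21, the counterpart of SF3A1, rose from 1907.8 ± 53.9 to 2740.4 ± 46 (SD, n = 4), and prp-9, the counterpart of SF3A3, rose by 0.40 (adjusted p = 6.17e-11). In SF3b, which contacts the branch point, sap-49 rose by 0.56, sftb-2 by 0.49 and sftb-1 by 0.20. The branch point binding protein sfa-1 rose by 0.16, and uaf-1, the large subunit of U2AF, rose by 0.20, a call that was lost without empty vector replicate 1 or RNAi replicate 3.

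Helicases and tri-snRNP proteins rose as well. ddx-23, the helicase PRP28 that frees the 5′ splice site from U1, was read at 2070.6, 2101.9, 2078.6 and 2121.9 on empty vector and at 3139.9, 3060.1, 2967.8 and 3034.3 on RNAi. The replicates of each group lay close together and the groups were far apart (log2 fold change 0.54 ± 0.0301, adjusted p = 6.16e-16, the smallest p among named rises). ddx-46, the helicase PRP5 that acts on the U2 snRNP, went from 2519.7, 2608.3, 2546.0 and 2527.7 to 4288.2, 4596.1, 4649.2 and 4308.6, and the groups did not overlap. Its rise was 1.75-fold (0.81 ± 0.059, adjusted p = 8.4e-13). Rises of 0.56 to 0.76 were found for the U5 GTPase eftu-2, for the tri-snRNP proteins prp-31, snu-66, prp-38 and dib-1 and for the splicing-associated rsr-2 and bud-31. The Sm proteins snr-4 and snr-6 rose by 0.52 and 0.66, and lsm-5 by 0.68, whereas lsm-1, which acts in cytoplasmic mRNA decay, fell by 0.36.

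Other genes among those with the smallest p for a rise were let-858, the counterpart of the splicing factor CWC22 (0.56), the cyclin L gene cyl-1 (0.69) and ssb-1, which encodes the La RNA-binding protein (0.76). tos-1, a transcript widely used as a reporter of splicing in this species, was read at 416.9, 451.9, 490.3 and 437.7 on empty vector and at 1089.2, 1137.0, 1133.0 and 1160.5 on RNAi. Every RNAi library was far above every control, and the rise was 2.52-fold (1.33 ± 0.094, adjusted p = 3e-13). Genes named for the largest or most certain changes were picked among those without overlap. For such genes, here and below, the lack of overlap describes the choice and is not added evidence. The table counts reads per gene, so the isoforms of tos-1 and of other genes were not analysed here.

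**Figure D1:**
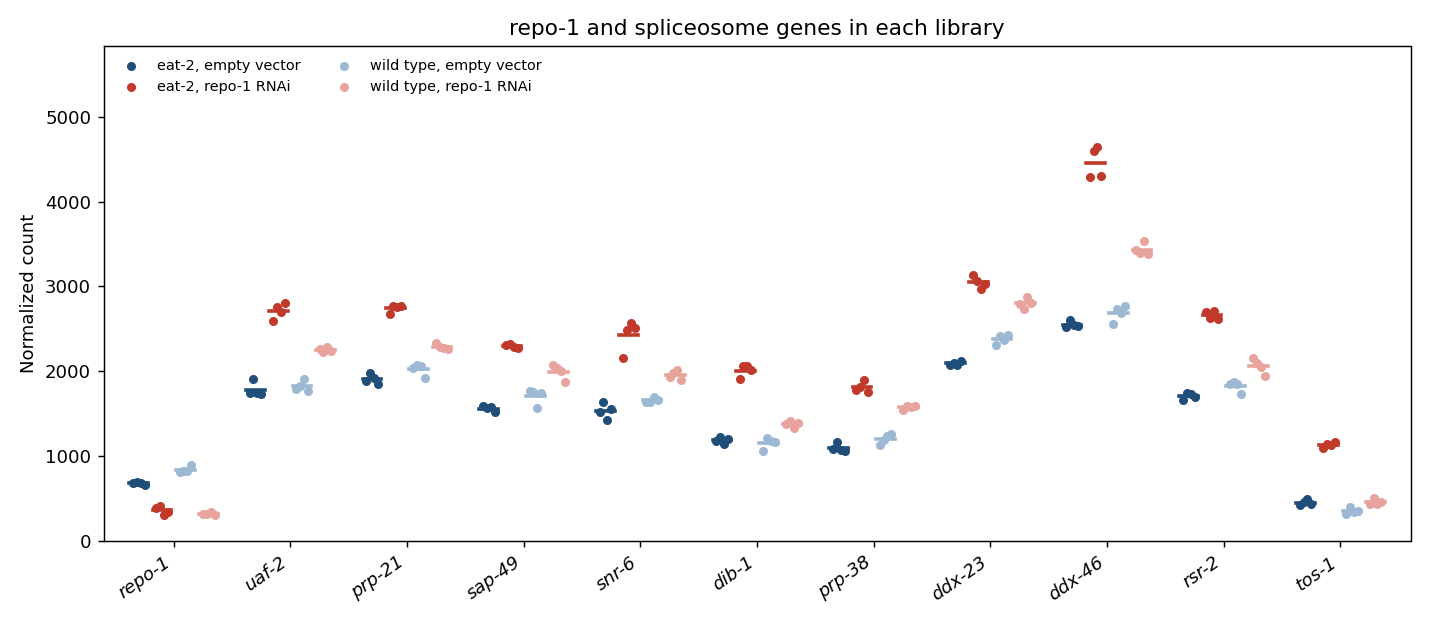
Normalized counts (vertical axis) of repo-1, 9 spliceosome genes and tos-1 in each of 16 libraries; points are libraries, bars are means of 4, and colours give genotype and treatment. repo-1 was lower in all 4 eat-2 RNAi libraries and the other 10 genes were higher than in all 4 eat-2 controls, with tos-1 2.52-fold higher.

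The splicing rises were larger in eat-2 than in wild type. Across all genes, 1244 (10.1%) were higher and 1595 (12.9%) lower on RNAi in wild type, and the effect in eat-2 exceeded that in wild type for 490 genes (3.98%) and fell short of it for 830 (6.73%). Positive differences made up 37.1% of these calls, 44.1% after quantile normalization and 20.4% with edgeR. The difference was positive and called for 8 of the 14 U2 factors, 8 of the 14 Sm and LSm proteins, 9 of the 18 U1 and tri-snRNP proteins and 11 of the 20 helicases and PRP19 complex proteins, and negative and called for 0 of them. Starting levels differed. On empty vector, eat-2 was called below wild type for 9, 8, 11 and 12 members of these lists and above it for 0. Summed over the 18 U1 and tri-snRNP proteins, eat-2 had 49133.6 to 50694.5 on empty vector and 65869.7 to 67134.4 on RNAi. Wild type had 55914.0 to 56560.2 and 63705.3 to 65363.3. dib-1 rose from 1183.6 ± 32.3 to 2007.1 ± 72 in eat-2 and from 1152.1 ± 69.1 to 1377.4 ± 37 in wild type (SD, n = 4; difference 0.50 ± 0.069, adjusted p = 3.54e-06). For tos-1 the difference was 0.94 ± 0.133 (adjusted p = 6.41e-06), with wild type means of 348.5 and 457.4. repo-1 was reduced less in eat-2 than in wild type, as given above, and its part in these differences was not tested.

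Regulators of alternative splicing moved in both directions. Of 33 measured, 14 rose and 11 fell, beside 16.2% and 21.4% of all genes, and the median was 0.08. sup-12, a muscle splicing regulator, was read at 313.6, 334.3, 347.7 and 327.3 on empty vector and at 173.8, 183.6, 191.8 and 149.9 on RNAi. The groups did not overlap, and the fall was 1.89-fold (-0.92 ± 0.104, adjusted p = 1.21e-08). In wild type sup-12 averaged 112.2 and 111.8. sym-2, an hnRNP F/H protein, fell by 1.08, mec-8, which acts in epidermis and touch neurons, fell by 0.57, and fox-1, a regulator that counts X chromosomes, fell by 0.50. Nonsense-mediated decay factors, which destroy transcripts with early stop codons, were called in 2 of 10, a share below the 37.5% of all genes. smg-9 rose by 0.27 (adjusted p = 0.00867) and the helicase smg-2 averaged 2728.7 ± 79.5 and 2692.8 ± 113 (SD, n = 4, adjusted p = 0.774). eif-4A3, a core subunit of the exon junction complex laid down by splicing, rose by 0.58.

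Ribosome biogenesis factors rose in 19 and fell in 1 of 37 (median 0.17). Among them the ribosome assembly factors lpd-6 and pro-2 rose by 0.61 and 0.51, and rpoa-1, the large subunit of RNA polymerase I, rose by 0.49 (adjusted p = 3.34e-12, 1.74e-10 and 6.06e-06). Transcripts of the mitochondrial genome rose in 7 and fell in 0 of 12, with a median of 0.36. COX3, a core subunit of cytochrome c oxidase, was read at 3145.7, 3128.1, 3515.2 and 2867.6 on empty vector and at 4555.3, 4824.0, 4836.5 and 3894.3 on RNAi. The groups did not overlap (0.52 ± 0.0838, adjusted p = 8.51e-06). atp-6 and nduo-5, of ATP synthase and complex I, rose by 0.63 and 0.41. In wild type 0 of the 12 rose and 3 fell, and the effect in eat-2 exceeded that in wild type for 9. Summed over the 12 genes, the level was 30442.4 to 32209.1 on empty vector and 35676.4 to 42289.3 on RNAi in eat-2, beside 36460.9 to 41537.1 and 33567.1 to 39163.9 in wild type, so the eat-2 controls were the lowest group. Nuclear genes of the respiratory chain rose in 21 and fell in 7 of 68, among them the cytochrome c gene cyc-2.1 (by 0.50). Beside these lists, 16.2% of all genes were higher and 21.4% lower in eat-2, and 10.1% and 12.9% in wild type. Over all genes the difference was positive and called for 3.98%.

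Most of the measured cuticlins, lipocalins and furrow collagens fell. The cuticle is a collagen exoskeleton that the epidermis rebuilds at every larval molt, under a temporary matrix of zona pellucida (ZP) proteins and lipocalins. Of 28 cuticlins and ZP-domain matrix genes, 17 fell and 1 rose (median -1.05). Of 7 lipocalins 7 fell (median -1.44), and of 6 collagens of the annular furrows 4 fell and 0 rose (median -1.38). These shares stand beside 21.4% of all genes that were lower. The filter used the mean over all 40 libraries, eat-2 controls included, and 28 of 42 cuticlins and ZP-domain genes passed it. In these lists the eat-2 controls had the highest sums of the 4 groups. Some members may therefore have passed only through the controls, which was not examined.

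cut-3, a cuticlin of the alae (chromosome II, 8445169 to 8446831), was read at 765.4, 872, 717.5 and 817.4 on empty vector and at 45.38, 41.61, 47.39 and 40.8 on RNAi. Both groups were tight and did not overlap, and the RNAi mean was 5.52% of the control (-4.15 ± 0.549, adjusted p = 2.69e-07). In wild type cut-3 averaged 27.24 ± 7.76 on empty vector and 52.52 ± 19.4 on RNAi (SD, n = 4), levels like those of eat-2 on RNAi. cut-2 went from 1065.9, 1245.0, 1137.7 and 1137.0 to 103.6, 157.4, 158 and 150.7, an 8.1-fold fall without overlap. cut-6, a cuticlin with a von Willebrand factor domain, fell by 3.31.

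Among collagens, col-165 was read at 1173.1, 1155.9, 985.9 and 1049.8 on empty vector and at 62.51, 61.06, 74.48 and 68.27 on RNAi, again without overlap (16.2-fold lower, adjusted p = 0.000113). col-74 fell by 3.88. The furrow collagens dpy-2, dpy-7 and dpy-10, mutations in which make short, fat animals, fell by 1.96, 1.82 and 1.18. dpy-2 averaged 453.9 ± 10.4 and 118.6 ± 29.3 in eat-2 but 29.67 ± 8.41 and 65.83 ± 11.5 in wild type (SD, n = 4), where it rose (adjusted p = 0.0113). The difference between genotypes was -3.11 ± 0.475 (adjusted p = 1.9e-05).

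Enzymes and signals of the molt followed. cht-5, a chitinase, was read at 242.6, 203.4, 236.4 and 264.4 on empty vector and at 4.281, 9.046, 18.06 and 16.48 on RNAi. No RNAi library came near the controls (-4.36 ± 0.603, adjusted p = 5.98e-07). The chitin-binding chtb-1 fell by 2.88, glf-1, which makes the sugar galactofuranose for the surface coat, fell by 2.87, and rocf-1 fell by 3.07. Molting factors fell in 12 and rose in 1 of 33 (median -0.45), beside 21.4% and 16.2% of all genes. Among those that fell were mlt-9 (by 2.00) and the protease inhibitor mlt-11 (by 1.45). The lipocalins lpr-4 and lpr-3 fell by 2.11 and 1.24, and lpr-5 fell to 22.3% of its control level.

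Hedgehog-related proteins are secreted from the epidermis of nematodes, and patched-related proteins are their presumed receptors or transporters. Of the former 8 fell and 2 rose among 26 (median -0.48, and -0.02 among those with a mean of at least 100). Of the latter 15 fell and 1 rose among 24 (median -0.43), beside 21.4% of all genes that were lower. After quantile normalization 6 of the former fell and 5 rose, and 14 of the latter fell and 1 rose. wrt-1 went from 282.1, 290, 302.7 and 299.3 to 33.39, 31.66, 47.39 and 35.31, without overlap (-2.97 ± 0.291, adjusted p = 6.24e-10). wrt-2 fell by 2.84, the patched-related ptr-25 fell by 2.12, and ptr-18 fell to 35% of its control level.

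Other named genes fell as well. pqn-73, a glutamine- and asparagine-rich protein, averaged 344 ± 30.3 on empty vector and 25.4 ± 5.39 on RNAi (SD, n = 4), and the lectin clec-78 fell by 2.53. gei-13, a zinc finger protein, was read at 641.1, 633.7, 631.4 and 581.1 and at 129.3, 112.2, 112.8 and 147.5, without overlap (-2.31 ± 0.136, adjusted p = 3.53e-15). Of 24 proteins of the pharyngeal cuticle 5 fell and 0 rose, among them abu-14 (by 2.09), a share no larger than the 21.4% of all genes. phat-5 of the pharyngeal glands fell by 4.59, from 106.8 to 132.7 on empty vector to 2.257 to 7.689 on RNAi.

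**Figure D2:**
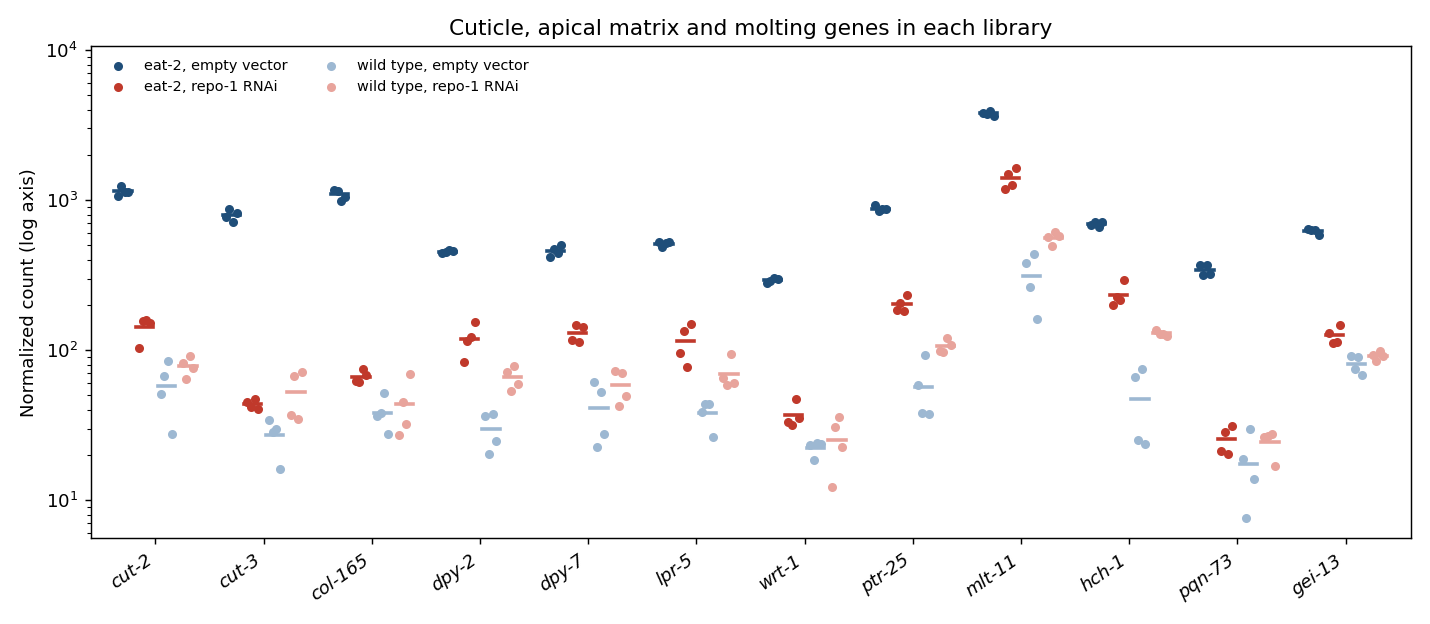
Normalized counts (log axis) of 12 cuticle, matrix and molting genes in each of 16 libraries; points are libraries, bars are means of 4, and colours give genotype and treatment. The eat-2 control libraries lay above the other 3 groups in every gene shown, for example at 717.5 to 872 for cut-3.

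The cuticlins and ZP-domain genes did not fall as a group in wild type. Of the 28 cuticlins and ZP-domain genes 11 rose and 1 fell there (median 0.65), and the effect in eat-2 was below that in wild type for 19 and above it for 0. The same difference was called for 6 of the 7 lipocalins, 4 of the 6 furrow collagens, 11 of the 33 molting factors and 6 of the 24 patched-related genes. Over all genes the difference was negative and called for 6.73%, and 10.1% were higher and 12.9% lower in wild type. In wild type itself the lipocalins rose in 2 and fell in 0 (median 0.77), the furrow collagens in 2 and 0 (median 0.55), the molting factors in 6 and 4 (median 0.13) and the patched-related genes in 2 and 5 (median -0.06). Their starting levels differed. Summed over the 42 cuticlins and ZP-domain genes of the table, eat-2 controls had 11245.7 to 12058.7 and eat-2 on RNAi 4393.5 to 5717.1, whereas wild type had 1219.5 to 2068 on empty vector and 2741.8 to 3004.9 on RNAi. The order was the same in every library, with eat-2 controls highest, eat-2 on RNAi next and wild type controls lowest.

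hch-1 encodes the hatching enzyme, a protease released by embryos. It was read at 678.6, 715, 666.4 and 715.7 on empty vector and at 199.5, 224.8, 216.7 and 291.9 on RNAi in eat-2, without overlap (-1.58 ± 0.438, adjusted p = 0.00443). In wild type it rose from 47.49 ± 26.8 to 129.8 ± 4.94 (SD, n = 4), and the genotypes differed by -3.20 ± 0.619 (adjusted p = 0.000455). In whole-body RNA of adults that carry embryos, fewer cells or embryos of a kind and less RNA per cell cannot be told apart, for hch-1 and for every gene group here.

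Genes of developing embryos and of tissue identity are given next, under the same limit. Homeobox genes fell in 21 and rose in 5 of 55 (median -0.32), and in 15 the effect in eat-2 was below that in wild type. Over all genes 21.4% were lower and 16.2% higher, and the difference was negative and called for 6.73%. Among homeobox genes with a mean of at least 100 the median was 0.05. pha-4, which specifies the pharynx and is needed for long life under dietary restriction, was read at 591.1, 601.1, 546 and 587.9 on empty vector and at 286.8, 310.3, 243.7 and 271.5 on RNAi. The groups did not overlap (-1.07 ± 0.159, adjusted p = 2.25e-06), and in wild type the means were 155.7 and 165.5. hlh-1, the MyoD counterpart that specifies muscle, fell by 0.88.

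Markers of differentiated tissue are given for comparison. Of 31 body wall muscle genes 11 rose and 9 fell (median 0.05), with tni-1, a troponin I, falling by 0.46. Of 31 neuron genes 1 rose and 6 fell (median -0.22, and -0.05 after quantile normalization), among them aex-3 (by 0.44). That share is not above the 21.4% of all genes that were lower, and 2 neuron genes fell after quantile normalization. Without empty vector replicate 1 or 2 the number was 3, and without RNAi replicate 3 it was 2. The summed level of the neuron list was 13209.7 to 14209.5 on empty vector and 13376.6 to 14373.1 on RNAi. Of 30 early zygotic genes that passed the filter, out of 54, 9 fell and 4 rose, beside 21.4% and 16.2% of all genes. The summed level of the 54 early zygotic genes was 3731.6 to 3929 on empty vector and 3699.2 to 3866 on RNAi. Their part in the matrix result was not tested.

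sdz-30, a gene under the embryonic factor SKN-1, fell most among early zygotic genes. It was read at 200.6, 226.1, 208.9 and 220.8 on empty vector and at 12.84, 17.64, 9.028 and 29.03 on RNAi. The groups were far apart (-3.69 ± 0.254, adjusted p = 1.5e-13). Wild type started from a like level, 169.9 ± 16.4, and reached 46.97 ± 5.79 (SD, n = 4), and the fall was deeper in eat-2 with a difference of -1.85 ± 0.359 (adjusted p = 0.000471). sdz-28 fell by 1.91.

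Cuticle collagens as a whole changed in both directions, with a difference between batches. Of 131 tested, out of 178, 35 rose and 15 fell (median 0.31), beside 16.2% and 21.4% of all genes. The median difference was 0.36 and 0.41 in batches 1 and 2 and -0.01 and 0.03 in batches 3 and 4. rol-1, a collagen of the adult cuticle, was read at 0, 0, 298.9 and 284.7 on empty vector and at 299.7, 473.5, 505.5 and 384.5 on RNAi. The controls of batches 1 and 2 had no reads while those of batches 3 and 4 came close to the RNAi libraries, so the called difference (adjusted p = 0.00163) rested on batches 1 and 2. Within batches 3 and 4 it was 0.59 and missed the threshold. col-49, col-63 and col-138 had the same split, with 0 to 3.945 in the control libraries of batches 1 and 2 and 145.3 to 307.3 in those of batches 3 and 4. With edgeR and with DESeq2 none of these 4 collagens was called, and col-63 also lost its call without empty vector replicate 1.

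Major sperm protein genes rose in both genotypes. Major sperm proteins, the cytoskeletal proteins of nematode sperm, rose in 24 and fell in 0 of 30 that passed the filter, out of 35 (median 1.64). Their sum was 628.6, 948.9, 2478.2 and 2283.6 on empty vector and 3136.5, 4080.9, 4917.8 and 5080.7 on RNAi. The groups did not overlap, but the controls of batches 3 and 4 were higher than those of batches 1 and 2, and the median difference was 2.33 and 2.02 in batches 1 and 2 and 0.95 and 1.15 in batches 3 and 4. msp-19, msp-81 and msp-57 rose by 1.91, 1.86 and 1.78. Reads of these near-identical genes cannot be assigned to single copies with certainty. Other sperm genes rose in 14 and fell in 2 of 39 (median 0.98, and 0.02 among those with a mean of at least 100), among them nspd-1 (by 1.67). The median difference of these was 1.40 and 1.38 in batches 1 and 2 and 0.21 and 0.58 in batches 3 and 4. The number that rose was 4 without empty vector replicate 1, 6 without empty vector replicate 2, 7 without RNAi replicate 4 and 5 in batches 3 and 4 alone. In wild type 28 of the 30 major sperm proteins rose (median 1.86) and 9 of the 39 other sperm genes rose and 2 fell. The genotypes differed for 0 of either list by limma. Beside these lists, 16.2% of all genes were higher in eat-2 and 10.1% in wild type.

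**Figure D3:**
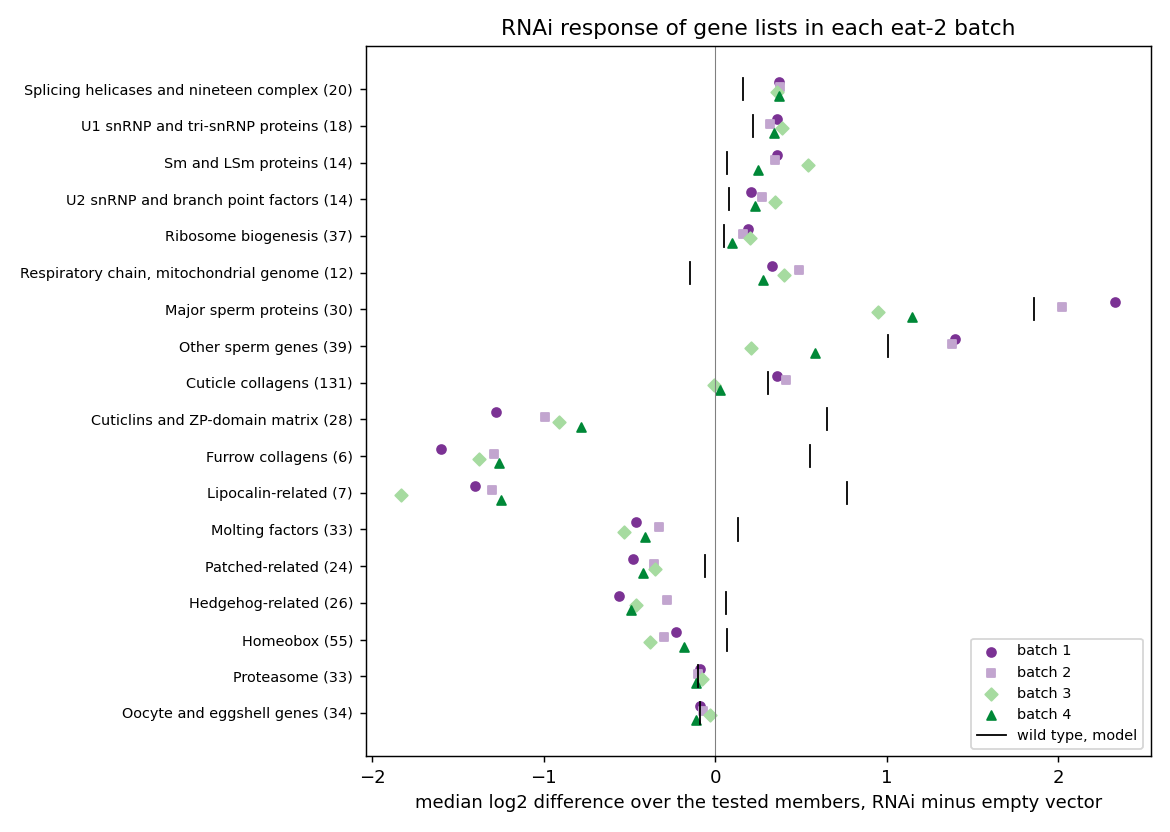
Median log2 difference over the tested members of 18 gene lists (number tested in brackets), RNAi minus empty vector in eat-2, for each batch; the black line is the median in wild type from the model. The 4 batches lay on the same side of 0 for each list shown except cuticle collagens, at 0.36, 0.41, -0.01 and 0.03.

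Part of the response was also called in wild type. Of the genes higher in eat-2, 728 were also higher in wild type, which is 36.5% of the eat-2 list and 58.5% of the wild type list. Of the genes lower in eat-2, 900 were also lower in wild type, 34.2% and 56.4% of the lists, and 35 and 92 genes were called in opposite directions. The 2 contrasts share no library, and across the 12327 genes their log2 fold changes had a Pearson r of 0.421 and a Spearman coefficient of 0.44, given as a description since genes are not independent replicates.

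clec-150, a C-type lectin, had the smallest p. It was read at 1943.0, 1885.9, 1942.9 and 2148.0 on empty vector and at 526.6, 506.6, 505.5 and 581.4 on RNAi. The groups did not overlap (-1.90 ± 0.0573, adjusted p = 3.53e-24), and the fall in wild type was 1.74 (adjusted p for the difference = 0.229). The lectins clec-222 and clec-223 fell by 3.02 and 2.16, and clec-266 rose by 1.81.

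tbh-1, the enzyme that makes octopamine and is expressed in gonadal sheath cells, was read at 4214.8, 4137.1, 4267.0 and 4217.6 on empty vector and at 1043.8, 1061.5, 1171.3 and 1268.8 on RNAi. The RNAi mean was 27% of the control, without overlap (-1.89 ± 0.193, adjusted p = 1.42e-09). In wild type it was 24.3%. The sheath innexin inx-8 fell by 0.76. Of 10 genes of the gonadal sheath and octopamine synthesis, 5 fell and 1 rose (median -0.01). Over all genes 21.4% were lower and 16.2% higher. The glutathione transferase gst-24 went from 54.58, 57.75, 69.39 and 70.7 to 298, 348.7, 406.2 and 361.7, a 5.53-fold rise without overlap (adjusted p = 9.42e-12), beside 4.19-fold in wild type, and gst-5 rose by 1.32.

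Metabolic genes called in eat-2 included the glycine decarboxylase gldc-1 and the lysosomal proteases ctsa-1.1 and cpr-4, which fell by 1.24, 0.69 and 1.33. The fatty acid desaturases fat-5 and fat-2 rose by 0.99 and 0.48. The short-chain dehydrogenase dhs-26 and the glucuronosyltransferase ugt-66 rose by 3.80 and 2.97 from control levels of 1.973 to 9.15 and 2.63 to 12.2, and ugt-53 fell by 2.60. All 8 were also called in the same direction in wild type, and the difference between genotypes was not called.

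**Figure D4:**
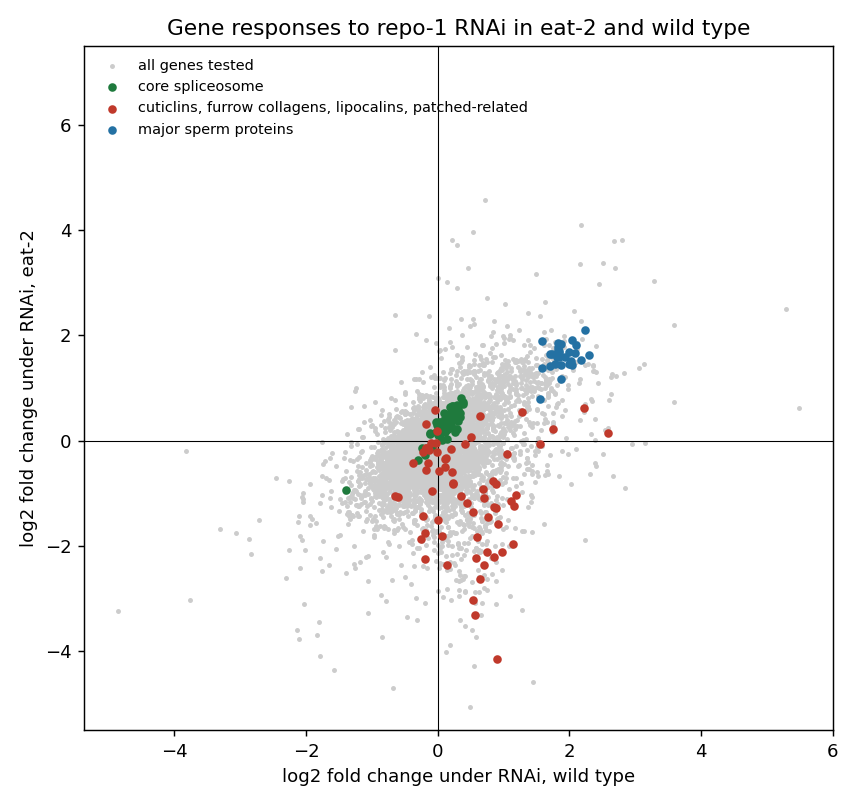
Log2 fold change under repo-1 RNAi in wild type (horizontal) and in eat-2 (vertical) for the 12327 genes tested, with core spliceosome genes, 4 matrix-related lists and major sperm proteins coloured. Major sperm proteins were positive in both genotypes, and the matrix-related genes reached -4.15 in eat-2 (cut-3).

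In the positive direction, the largest called difference from wild type among the genes named was that of col-135, a collagen. It averaged 178.1 ± 12.2 and 108.8 ± 9.2 in eat-2 and 1653.8 ± 144 and 299.6 ± 26.6 in wild type (SD, n = 4). It fell in both, by 0.71 in eat-2, where the call was lost after quantile normalization, and by 2.46 in wild type (difference 1.75 ± 0.347, adjusted p = 0.000591). ugt-26 and ule-2 rose by 0.86 and 0.63 in eat-2, with differences of 1.07 and 0.92. fbxa-72, an F-box gene, rose by 0.52, a call lost without RNAi replicate 2 or RNAi replicate 4. ugt-63 averaged 71.4 and 94.7 in eat-2 (adjusted p = 0.0553) and 548.3 and 370.1 in wild type, and the difference of 1.00 was called.

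Of 21 osmotic response genes 5 rose and 6 fell (median 0.02), not far from the 16.2% and 21.4% of all genes. The list as a whole thus showed no common direction, and single members are given next. gpdh-1, which makes the osmolyte glycerol, was read at 25.64, 32.94, 25.16 and 19.37 on empty vector and at 105.3, 152.9, 99.3 and 158.5 on RNAi. Every RNAi library was above every control (2.27 ± 0.195, adjusted p = 3.14e-11), and the rise exceeded that in wild type by 1.41 ± 0.276 (adjusted p = 0.000513). The inositol transporter hmit-1.1 rose by 1.19. osm-8 and osr-1, 2 genes whose loss switches the glycerol response on, fell by 3.41 and 2.33. osm-8 was read at 39.71 to 57.21 on empty vector and at only 1.809 to 5.138 on RNAi. For osr-1 the ranges were 61.15 to 99.89 and 12.84 to 18.05. The part of these 2 genes in the rises of gpdh-1 and hmit-1.1 was not tested.

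Genes of dietary restriction and nutrient sensing showed no common direction. Of 36 measured, 8 rose and 7 fell (median -0.05). mxl-3, a repressor of lysosomal lipases, rose by 0.57, sbp-1, the counterpart of SREBP, rose by 0.40, and mml-1, a Myc-like factor, fell by 0.33. Autophagy genes fell in 11 and rose in 2 of 27 (median -0.14), among them the ubiquitin-like lgg-2 (fell by 0.35) and atg-5 (rose by 0.41). Proteasome subunits fell in 15 and rose in 0 of 33 (median -0.10), including rpt-4 and rpn-6.1, which fell by 0.34 and 0.39, and in wild type 14 fell. Oocyte and eggshell genes fell in 13 and rose in 2 of 34, with the yolk receptor rme-2 falling by 0.35 and the caveolin cav-1 rising by 0.64. In wild type 13 of the 34 fell and 3 rose, and the genotypes differed for 0. Beside these lists, 16.2% of all genes were higher and 21.4% lower in eat-2, and 12.9% were lower in wild type. Of 6 yolk protein genes only vit-1 was called (fell by 0.43), and vit-6 averaged 454578.6 and 495224.9 (adjusted p = 0.281).

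The response was graded by exon number. Among protein-coding genes the share called higher fell from 32.2% of 264 genes with 1 exon through 25.9% of 864 genes with 2 exons to 9.96% of 1607 genes with 12 or more, and the share called lower went from 10.2% through 14.7% to 31.8%. The medians were 0.35, 0.07 and -0.12. In wild type the shares higher were 26.9%, 15.5% and 7.78% in these bins, the shares lower 9.09%, 11.3% and 14.9%, and the medians 0.29, 0.07 and -0.03. Across 12313 genes the Spearman coefficient between exon number and the log2 fold change was -0.189 in eat-2 and -0.0943 in wild type, and exon number was itself tied to gene span (coefficient 0.794).

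The single-exon bin holds many sperm, histone and collagen genes. Without those families and the nematode-specific peptides, 26% of 173 single-exon genes were higher and 15.6% lower. Among genes with a mean of at least 1000, the share higher went from 49.4% of 156 genes with 2 exons to 20.4% of 570 with 12 or more. Among genes that span over 1500 and up to 3000 bases, the share lower went from 13.5% of 89 genes with 2 exons to 29.3% of 41 genes with 12 or more. The 3 restrictions were chosen after seeing the data. Which step links exon number to the level was not tested.

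In eat-2 the X chromosome had fewer rises and more falls than the autosomes. Of its 1806 tested genes 8.47% were higher and 27.9% lower (median -0.14), whereas on the 5 autosomes 15.8% to 18.6% were higher and 19.3% to 21.8% lower. In wild type 8.36% of X-linked genes were higher and 12.3% lower (median -0.02), beside 9.23% to 11.7% and 11.8% to 14.5% on the autosomes. The share lower on X was thus within the range of the autosomes there. The X chromosome of this species is largely silent in the germline, so its transcripts come mostly from somatic cells. After quantile normalization the shares on X were 15.1% and 22.1% (median -0.05), beside 21.8% to 23.9% and 17.5% to 19.5% on the autosomes.

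**Figure D5:**
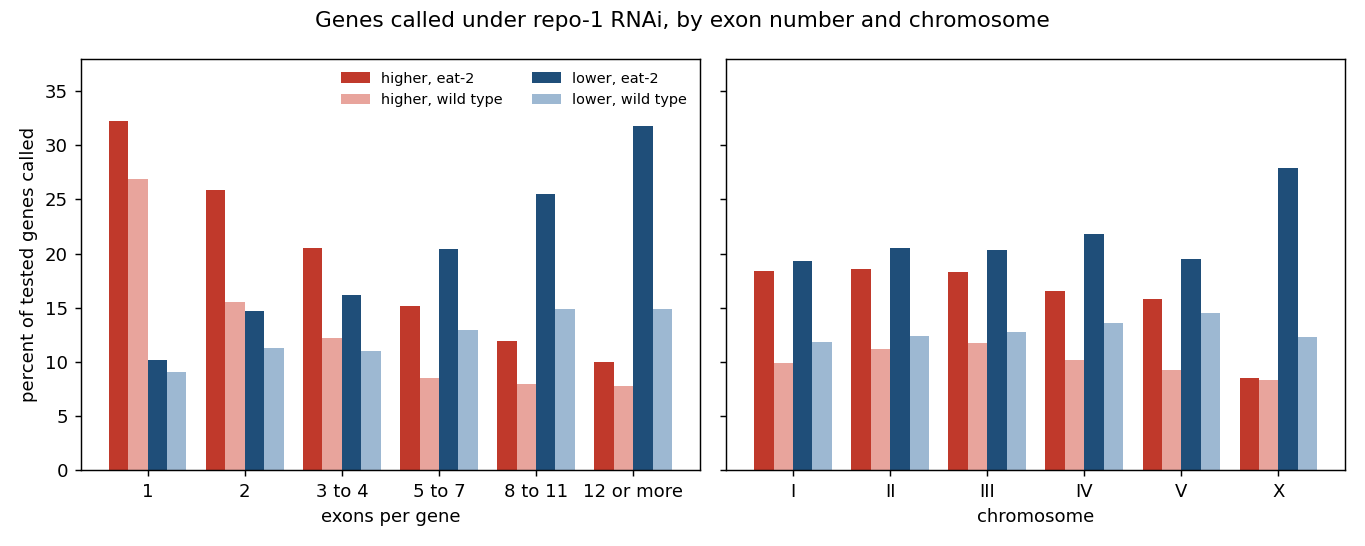
Percent of tested genes called higher or lower under repo-1 RNAi by exon number per gene (left, protein-coding genes) and by chromosome (right), in eat-2 and in wild type. The share lower in eat-2 went from 10.2% to 31.8% with exon number and was 27.9% on the X chromosome.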

How the data were processed

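Whole-body RNA was prepared with Qiagen miRNeasy and made into Roche Kapa stranded mRNA libraries, per the labels' protocols. The submitters' processing notes list FastQC 0.11.8, MultiQC, Salmon 0.14.2, DESeq2 and the build WBcel235, without roles. The authors deposited 1 table of 20956 genes by 40 libraries, in which the signal is a gene count divided by a size factor for each library. In all 40 libraries the values were whole multiples of the value of 1 read within 0.01. The recovered reads of 38 were used for edgeR and DESeq2, without clk-1 RNAi replicate 1 and age-1 RNAi replicate 4, in which 1 read is worth close to 1. Positions and exon numbers (of the transcript with most exons) came from a WBcel235 annotation.

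Genes whose values averaged 10 or more across all 40 libraries were tested with limma 3.58.1 in R 4.3.3, with trend, on log2(value + 1), which understates changes of low genes, in 1 fit with a mean for each of 10 groups. p-values were adjusted by Benjamini-Hochberg within a comparison. The scripts were tested on simulated data. Alternatives were another pseudocount (5), no filter or a mean of at least 100, quantile normalization, edgeR 4.0.16, DESeq2 1.42.0, array weights, fewer libraries, batches and a replicate block. The labels give the replicate number as the batch. Residuals of same-numbered RNAi and control libraries correlated at 0.256, 0.188, 0.109 and 0.157. These exceeded the correlations with other numbers except in batch 3, where the highest was 0.144. The numbers may thus pair the samples, which these weak correlations do not settle. The main fit did not use the pairing, and the replicate block did. Gene lists are described by counts and medians, without a test. Named genes were the largest and most certain changes with no overlap, the largest differences from wild type and leading or defining list members. For the largest and most certain changes, the lack of overlap between RNAi and control libraries was thus built into the choice. The share of all tested genes without overlap is not given here. The comparison, the lists and the named genes were chosen with earlier results of these data known. Collagens, histones and sperm genes share sequence, so their counts are uncertain per gene. A gene that the naming rule picked is not reported here. Promoter motifs were not analysed here.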

Additional observations from a re-analysis of the deposited data

Results flagged for a closer look

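The change under RNAi in eat-2 differed from that in wild type for 78 of the 119 genes named, by the interaction term of the limma fit. Over all 12327 genes tested the difference was called for 1320, positive for 3.98% and negative for 6.73%. Genes were named partly for this difference or for large changes in eat-2. A high share among them was thus built into the choice. The values in brackets are eat-2 minus wild type on the log2 scale. Among spliceosome genes the difference was positive for uaf-2 (0.30), sap-49 (0.34), prp-21 (0.34), prp-9 (0.18), sftb-1 (0.19), sftb-2 (0.25), sfa-1 (0.19), snr-4 (0.42), snr-6 (0.42) and lsm-5 (0.38). It was positive as well for ddx-46 (0.45), rsr-2 (0.47), bud-31 (0.41), ddx-23 (0.31), eftu-2 (0.32), prp-38 (0.34), snu-66 (0.30), prp-31 (0.30) and dib-1 (0.50), and for the RNA-binding and splicing-related genes let-858 (0.32), cyl-1 (0.30), ssb-1 (0.53), tos-1 (0.94) and eif-4A3 (0.42). repo-1 itself differed by 0.47. The splicing regulators sym-2 (-0.80), sup-12 (-0.91), mec-8 (-0.52) and fox-1 (-0.47) differed in the negative direction.

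Ribosome biogenesis genes with a positive difference were lpd-6 (0.47), pro-2 (0.32) and rpoa-1 (0.43). Those of the mitochondrial genome were atp-6 (0.55), COX3 (0.63), nduo-5 (0.50) and nduo-3 (0.69).

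The matrix, molting and pharyngeal cuticle genes listed next differed in the negative direction. The cuticlins and chitin-related genes were cut-3 (-5.04), cut-2 (-3.56), cut-6 (-3.87), cht-5 (-2.78) and chtb-1 (-3.50). The collagens were col-165 (-4.14), col-74 (-4.07), dpy-2 (-3.11), dpy-7 (-2.41) and dpy-10 (-1.62). The lipocalins and signalling genes were lpr-3 (-2.40), lpr-4 (-2.87), lpr-5 (-3.05), wrt-1 (-3.05), wrt-2 (-3.16), ptr-18 (-1.51) and ptr-25 (-3.10). The remaining ones were mlt-9 (-2.22), mlt-11 (-2.39), hch-1 (-3.20), phat-5 (-6.05), abu-14 (-2.75), pqn-73 (-4.30), rocf-1 (-3.65), glf-1 (-3.28), gei-13 (-2.49) and clec-78 (-3.35).

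Genes of embryos, muscle and neurons with a negative difference were pha-4 (-1.16), sdz-30 (-1.85), sdz-28 (-1.15), tni-1 (-0.96) and aex-3 (-0.56). Other positive differences were those of col-135 (1.75), ugt-26 (1.07), ugt-63 (1.00), fbxa-72 (0.98), ule-2 (0.92), gpdh-1 (1.41) and mxl-3 (0.71), and other negative ones those of osm-8 (-3.10), osr-1 (-2.57) and lgg-2 (-0.23). The difference lost its call when 1 library was left out for cht-5, sfa-1, lsm-5, atp-6, nduo-3, mxl-3 and lgg-2, and after quantile normalization for repo-1, cht-5 and sfa-1.

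Of 238 groups of 4 libraries, 10 (4.2%) held a library whose gap to the nearest other exceeded the critical value of Dixon's test, a share that chance gives in about 1 of 20 groups. On empty vector these were uaf-2 in replicate 2 (1911.2 normalized counts), lpr-5 in replicate 2 (485.2 normalized counts), gei-13 in replicate 4 (581.1 normalized counts), cav-1 in replicate 2 (2986.1 normalized counts). On RNAi they were smg-9 in replicate 1 (365.6 normalized counts), cut-2 in replicate 1 (103.6 normalized counts), lpr-4 in replicate 4 (131.8 normalized counts), wrt-2 in replicate 1 (18.84 normalized counts), msp-81 in replicate 1 (146.4 normalized counts), osm-8 in replicate 2 (1.809 normalized counts).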

How the results depend on the processing

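The number of genes called in eat-2 was 4628, and 3949 to 4388 with any 1 eat-2 library left out. It was 2225 in batches 1 and 2 only, where fewer libraries enter, and within 1.5 times the number above under every other alternative run. The number whose response differed from wild type was 1320, and 1080 to 1202 with 1 eat-2 library left out. It was 424 in batches 1 and 2 only, 767 in batches 3 and 4 only, 2219 with the fit restricted to the 16 eat-2 and wild type libraries and 2639 with array quality weights, and for the last pair the cause was not tested. With the replicate block, the paired fit called 4759 and 1375 genes and changed no eat-2 call among the genes named, other than that ugt-63 gained one. In batches 1 and 2 only, sfa-1, uaf-1, smg-9, lpr-4 and fbxa-72 lost their calls, and in batches 3 and 4 only tni-1, aex-3 and the 4 collagens below did. No named gene that was called in eat-2 reversed its direction under any alternative. The balance of rises and falls over all genes did change with scaling, and the homeobox median changed sign with the filter, as given above. List medians were less stable than the named genes. At a limit of 1 SD, 22 of 60 were counted as moved after quantile normalization and 22 with edgeR. With a mean of at least 100 it was 20 of 59, and in each pair of batches 12 of 60. With DESeq2 and with the replicate block 0 were counted as moved. Of the named genes called in eat-2, 1 lost its call after quantile normalization (col-135) and 4 lost it with edgeR and with DESeq2 (rol-1, col-49, col-63 and col-138). The median log2 fold change of genes with 12 or more exons was below that of genes with 2 exons by -0.19 (coded as the first minus the second), and the gap was -0.09 among genes that span over 1500 and up to 3000 bases, an alternative chosen after seeing the data. Depth was lowest in RNAi replicate 3, at 7430044 reads, and limits genes near the filter most.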

Other observations

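Glutathione transferases rose in 8 and fell in 2 of 32 in eat-2 (median 0.13). In wild type they rose in 2 and fell in 5 (median -0.14), and the difference was positive and called for 6. Over all genes 16.2% were higher and 21.4% lower in eat-2, and 10.1% and 12.9% in wild type. The difference was positive and called for 3.98% of all genes. The median over all genes was -0.03 in eat-2 and -0.02 in wild type.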
